A study of Mus musculus with 89 samples.

Results

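The collagen genes of the mouse lung were followed here through an asthma model and exposure to copper oxide (CuO) nanomaterials. All genes on the array whose symbol consists of Col, a number, the letter a and a number were taken, which gave 44 of the 22911 genes measured. The rule uses the symbol alone and no measured value. By the structure their chains form, 11 are fibrillar, 9 are fibril associated, 6 form the type IV network of basement membranes, 3 are short chain network formers, 6 form the beaded filaments of type VI, 1 forms anchoring fibrils, 4 are transmembrane, 2 are multiplexins and 2 belong to none of these. The label held against the data: 23 of the 44 genes were well above background in all 89 samples, 20 in some of them, and only Col10a1, a gene of growth plate cartilage, in none. There were 12 genes above background in fewer than 45 samples.

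Collagens are the main structural proteins of the extracellular matrix, and every one of them is built from 3 chains wound into a triple helix. Fibroblasts and related mesenchymal cells make the fibrillar collagens that give airways, vessels and alveolar septa their tensile strength, and the type IV collagens form the sheet on which epithelium and endothelium rest. New chains are hydroxylated and folded in the endoplasmic reticulum, trimmed outside the cell and then crosslinked by lysyl oxidases. Deposition of fibrillar collagen beneath the airway epithelium is a known feature of chronic asthma, and fibroblasts raise the same genes during lung repair.

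Female BALB/c mice, 6 to 8 weeks old, were used, and all groups, the controls included, had been sensitized to ovalbumin (OVA) with alum. The mice were then challenged with PBS or with OVA by oropharyngeal aspiration and exposed on 4 days to CuO particles at 2.5, 10 or 40 µg per mouse and day, or to none. The particles were core CuO, or the core with carboxyl (CuO COOH), ammonium (CuO NH3) or polyethylene glycol groups (CuO PEG) on its surface. Lungs were taken 24 h after the last exposure, 2 RNA samples were pooled into each, and the pools were hybridised to Agilent 2-colour arrays with a different sample in each dye. The 26 groups held 7 PBS control samples, 8 OVA control samples, 4 samples each of CuO NH3 and CuO PEG at 10 µg without OVA, and 3 samples in each other group. Sensitized mice challenged with PBS served as the non-asthmatic controls, so no group without sensitization enters any comparison below.

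The 89 samples lay on 46 arrays of 6 slides. Core CuO and CuO COOH samples were on slides 1 to 3, CuO NH3 and CuO PEG samples were on slides 4 to 6, and both control groups were on both sets. No spot was saturated, and 46.7% to 68.8% of the spots of a sample were well above background. The defining markers of lung were present in every sample, with all 5 genes of alveolar type 2 cells, all 4 measured genes of alveolar type 1 cells and all 8 fibroblast genes above background throughout. A gene is called below when its Benjamini-Hochberg adjusted p in limma is under 0.05 and its log2 fold change lies beyond 0.58 in either direction. Sample values are log2 intensities after removal of dye, slide and array position, while fold changes come from a fit in which every array has its own term, so the difference between group values and the fitted fold change need not be equal. Levels were not compared between genes, because probes differ in brightness. The lung was measured in bulk, so fewer cells of a type and less RNA per cell cannot be told apart. The p-values measure the spread of pooled samples that remains after the fitted terms, shared over all groups. In the fit with array terms this is spread within arrays, and not the spread of the sample values printed.

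Across the 25 comparisons with controls, 22 of the 44 collagen genes (50%) were called at least once, beside 21.9% of all genes measured. Of these 22 genes, 14 were only ever higher than controls, 7 were only ever lower, and Col6a5 was higher in 1 comparison and lower in others. In PBS-challenged mice 19 collagen genes (43.2%, all genes 19.5%) were called at some material and dose, and in OVA-challenged mice 13 (29.5%, all genes 7.9%). At 40 µg per day without OVA, core CuO gave 15 calls with 10 higher (all genes 14%), CuO COOH 13 calls with 11 higher (all genes 10.3%), CuO NH3 16 calls with 13 higher (all genes 13.2%) and CuO PEG 2 calls, both higher (all genes 2.18%). The median log2 fold change of the 44 genes in these comparisons was 0.18, 0.12, 0.12 and 0.04, so a typical collagen gene moved little and the calls came from a subset. At 40 µg per day of core CuO the 3 exposed samples lay outside the range of the 7 PBS controls for 27 of the 44 genes, beside 36.4% of all genes. Single samples carried part of these counts: without core CuO 40 replicate 2 there were 3 calls with core CuO, of which Col2a1 and Col3a1 kept theirs whichever sample was left out, without PBS replicate 1 there were 2 with CuO COOH, and without CuO PEG 40 replicate 1 there were 0 with CuO PEG. With CuO NH3, 13 of the 16 calls held whichever sample was left out.

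**Figure D1:**
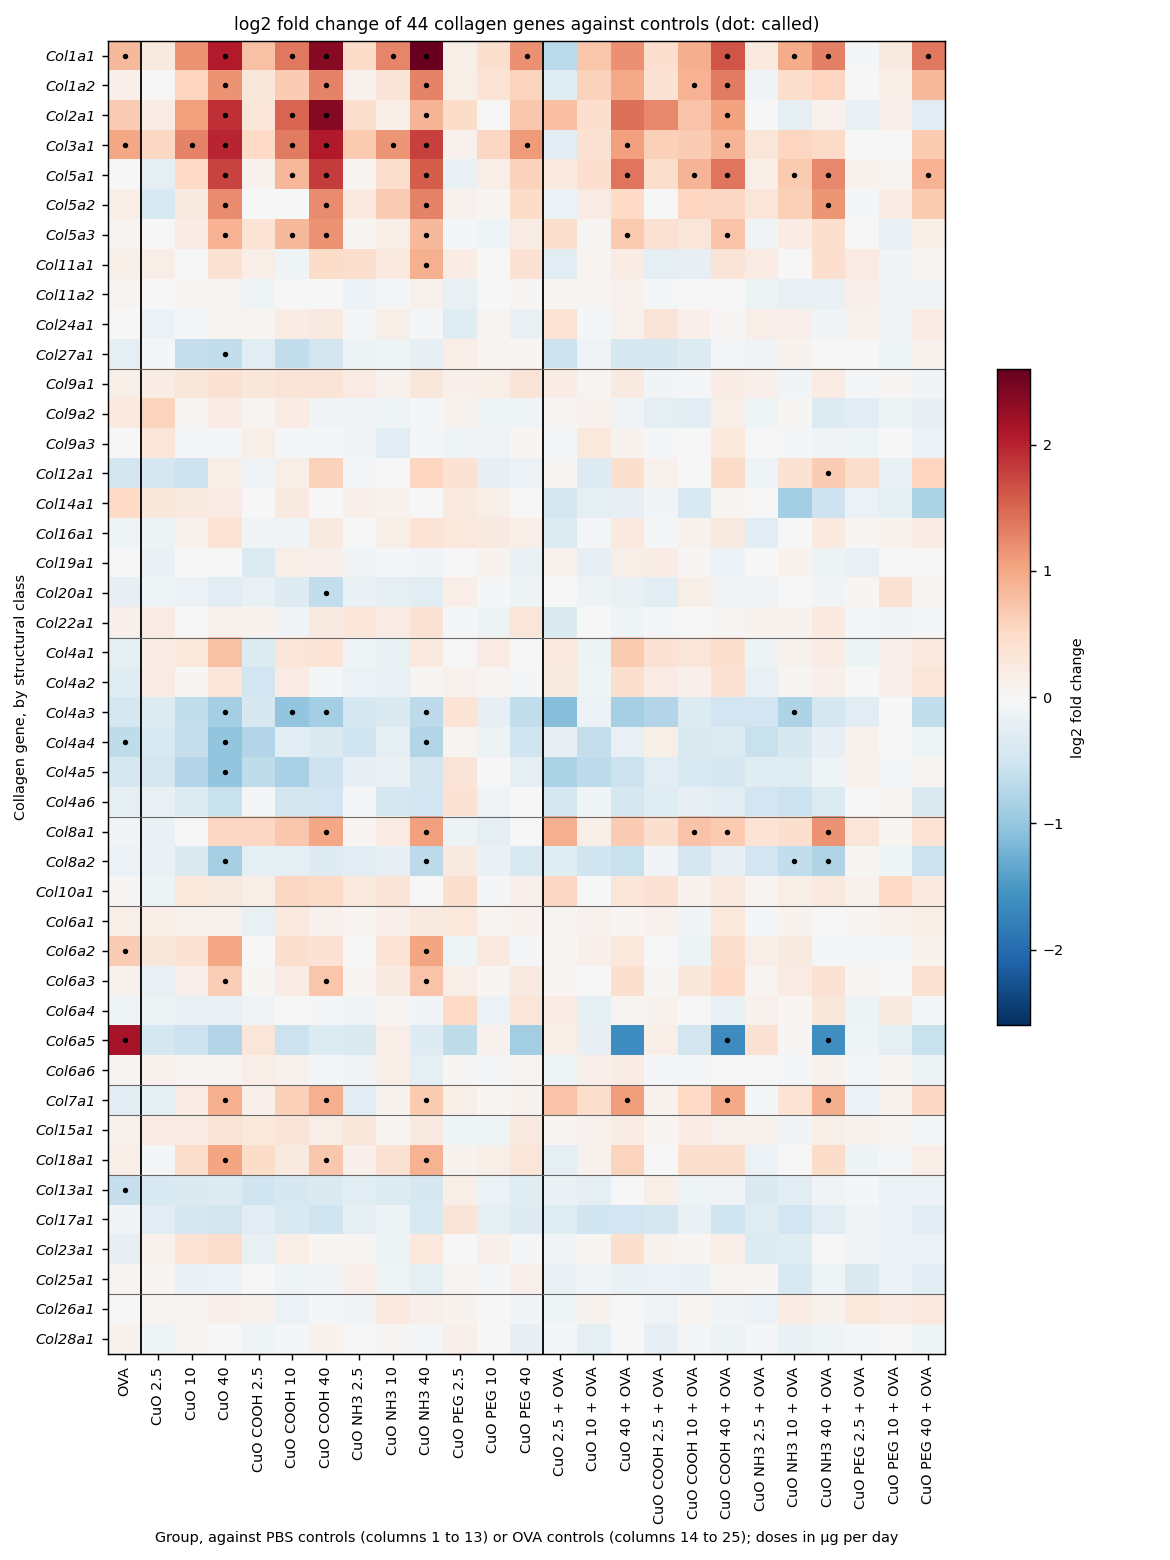
Each row is one of the 44 collagen genes, grouped by structural class, and each column is a group set against its controls, with doses in µg per day. Colour gives the log2 fold change (red higher, blue lower) and a dot marks a called difference; calls cluster among the fibrillar genes at 40 µg per day, where core CuO had 7 fibrillar genes higher, while the type IV genes hold 3 of its 5 lower calls.

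Type I and type III collagen together make up most of the fibrillar collagen of lung. Col1a1 and Col3a1 rose with allergen challenge and, without OVA, with 40 µg per day of each material, whereas Col1a2 was called neither with OVA alone (0.14) nor with CuO PEG (0.58). Col1a1 (chr11:94936224-94953042, GRCm38.p6) encodes the α1 chain, of which a type I molecule holds a pair. In the 7 PBS controls Col1a1 was lowest at 11.51, had a median of 11.75 and was highest at 12.02 on the log2 intensity scale. The 8 OVA controls had 12.14, 12.53 and 12.76. These ranges did not overlap, and the fitted difference was a log2 fold change of 0.85 (SE 0.21, 1.8-fold, adjusted p = 0.00889 in limma).

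After exposure to core CuO without OVA, the 3 samples of Col1a1 read 11.67, 12.05 and 12.02 at 2.5 µg per day, 12.97, 12.81 and 13.06 at 10 µg, and 14.10, 13.50 and 13.63 at 40 µg. With CuO COOH the values were 12.37, 12.06 and 12.13, then 13.25, 13.46 and 13.27, then 14.17, 13.97 and 14.23. With CuO NH3 they were 12.27, 12.15 and 12.02, then 12.67, 12.59, 13.05 and 12.72, then 14.39, 14.26 and 13.95. For these 3 materials every sample at 10 or 40 µg lay above the highest PBS control, and every sample at 40 µg lay above all samples of that material at 10 µg. With CuO PEG the values were 12.10, 12.01 and 11.81, then 12.48, 12.08, 12.36 and 11.85, and only at 40 µg, with 12.84, 13.19 and 12.86, did all samples clear the controls. The log2 fold changes of Col1a1 at 40 µg were 2.06 for core CuO (SE 0.36, 4.18-fold, adjusted p = 0.000221), 2.37 for CuO COOH (SE 0.34, 5.18-fold, adjusted p = 4.17e-05), 2.57 for CuO NH3 (SE 0.25, 5.92-fold, adjusted p = 5.86e-08) and 1.19 for CuO PEG (SE 0.3, 2.28-fold, adjusted p = 0.0279), all in limma. Within each slide that held both exposed and PBS control samples, Col1a1 was higher after 40 µg in all of them, by 1.37 to 2.5 for core CuO on 3 slides, 1.87 to 2.86 for CuO COOH, 2.08 to 2.45 for CuO NH3 and 1.02 to 1.33 for CuO PEG on 2 slides.

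In OVA-challenged mice Col1a1 read 13.43, 13.80 and 14.02 at 40 µg per day of core CuO, 14.02, 14.16 and 14.46 with CuO COOH, 14.11, 13.88 and 14.11 with CuO NH3, and 13.76, 12.96 and 13.55 with CuO PEG. All 12 samples were above the highest OVA control. Col1a1 passed the test with CuO COOH (log2 fold change 1.63, SE 0.25), CuO NH3 (1.3, SE 0.27) and CuO PEG (1.37, SE 0.29). With core CuO its log2 fold change of 1.19 was not called. Within slides the difference from OVA controls was 0.97 to 1.58 with core CuO and 0.76 to 1.27 with CuO PEG. The call with CuO PEG held in 6 of 11 fits with 1 sample left out. Its partner Col1a2, the α2 chain gene, passed the test in PBS-challenged mice at 40 µg of core CuO (log2 fold change 1.16, SE 0.28), CuO COOH (1.29, SE 0.27) and CuO NH3 (1.29, SE 0.2), and in OVA-challenged mice with CuO COOH at 10 µg (0.91, SE 0.19) and 40 µg (1.36, SE 0.2). Col1a2 had 14.19, 14.51 and 14.61 as lowest, median and highest of the PBS controls. It read 15.76, 15.27 and 15.38 with core CuO, 15.56, 15.60 and 15.74 with CuO COOH, 15.84, 15.79 and 15.87 with CuO NH3, and 15.17, 15.30 and 15.05 with CuO PEG at 40 µg, with no exposed sample inside the control range.

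Col3a1 (chr1:45311538-45349706, GRCm38.p6), the gene of type III collagen, which copolymerises with type I in compliant tissue, ran from 12.99 to 13.48 in the PBS controls, with a median of 13.23. The OVA controls ran from 13.82 to 14.42, with a median of 14.19, and did not overlap with them. Its log2 fold change with OVA alone was 1.01 (SE 0.16, 2.01-fold, adjusted p = 9.59e-05 in limma). At 40 µg per day without OVA, Col3a1 read 14.93, 14.65 and 14.74 with core CuO, 15.00, 14.74 and 14.98 with CuO COOH, 14.94, 15.02 and 14.84 with CuO NH3, and 14.32, 14.30 and 14.09 with CuO PEG. The log2 fold changes were 1.98, 2.06, 1.78 and 1.11 in that order (SE 0.26, 0.26, 0.19 and 0.22), and the call with CuO PEG had an adjusted p of 0.00488 in limma. Already at 10 µg Col3a1 was called with core CuO (1.28, the only collagen gene called there, beside 3.56% of all genes), CuO COOH (1.36) and CuO NH3 (1.15). In OVA-challenged mice Col3a1 was called at 40 µg of core CuO (1.07, SE 0.26) and CuO COOH (0.89, SE 0.19), whose samples read 14.94, 14.85 and 14.93 and 15.16, 15.08 and 15.22, and not with CuO NH3 or CuO PEG.

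The stretches just before the annotated starts of Col1a2 and Col3a1 are shown because these genes moved together with Col1a1. Each is the 250 bases upstream of the start given by RefSeq for GRCm38.p6, in the direction of the gene. Capitals mark matches to 3 short motifs, searched on both strands. They are CCAAT, known as the CCAAT box, then TATAAA, known as the TATA box, and the GC box with the letters GGGCGG, which reads CCGCCC when it lies on the other strand.

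Col1a2, chr6:4505368-4505617, + strand: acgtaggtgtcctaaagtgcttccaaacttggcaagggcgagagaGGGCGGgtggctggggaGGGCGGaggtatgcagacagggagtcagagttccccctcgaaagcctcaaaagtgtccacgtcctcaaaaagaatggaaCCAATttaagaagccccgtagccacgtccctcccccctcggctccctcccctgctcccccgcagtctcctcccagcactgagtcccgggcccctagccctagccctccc

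Col3a1, chr1:45311288-45311537, + strand: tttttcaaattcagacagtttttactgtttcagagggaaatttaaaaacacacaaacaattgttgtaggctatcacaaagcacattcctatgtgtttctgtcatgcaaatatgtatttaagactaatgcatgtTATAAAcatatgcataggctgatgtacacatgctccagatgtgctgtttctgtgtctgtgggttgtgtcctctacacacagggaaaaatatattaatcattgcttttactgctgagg

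The Col1a2 window held 1 match to CCAAT and 2 to GGGCGG, and the Col3a1 window held 1 match to TATAAA and neither of the others. A promoter window was given for 35 of the 44 collagen genes, with 38 windows in all. CCAAT was present in 34.2% of the 38 windows and in 33.8% of the 32851 promoter windows of all genes, TATAAA in 13.2% and 12.4%, and GGGCGG in 57.9% and 32.7%. A match to such short letters describes the sequence and says nothing of what binds there.

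Type V collagen forms the core on which type I fibrils assemble, and all 3 of its genes rose at 40 µg per day of core CuO, CuO COOH and CuO NH3. Col5a1 ran from 9.71 to 10.22 in the PBS controls (median 9.88) and from 9.77 to 10.22 in the OVA controls (median 10.03), so that OVA alone left it in the same range. At 40 µg without OVA Col5a1 read 11.62, 11.56 and 11.69 with core CuO, 11.79, 11.51 and 11.85 with CuO COOH, 11.83, 11.80 and 11.75 with CuO NH3, and 10.50, 10.50 and 10.59 with CuO PEG. All 12 samples were above both control groups, and those with CuO PEG were the lowest. The log2 fold change was 1.75 with core CuO (SE 0.22, 3.37-fold, adjusted p = 6.55e-06), 1.81 with CuO COOH (SE 0.22) and 1.57 with CuO NH3 (SE 0.16, adjusted p = 8.28e-08 in limma).

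Col5a1 was also the only collagen gene called with every material at 40 µg in OVA-challenged mice, with log2 fold changes of 1.39 (SE 0.22) for core CuO, 1.4 (SE 0.16) for CuO COOH, 1.25 (SE 0.17) for CuO NH3 and 0.91 (SE 0.19) for CuO PEG. The sample values there were 11.03, 11.25 and 11.37, then 11.63, 11.80 and 11.76, then 11.35, 11.42 and 11.67, then 10.80, 10.52 and 10.90. At 10 µg with OVA it passed the test with CuO COOH (0.88) and CuO NH3 (0.68). Unlike Col1a1 and Col3a1, Col5a1 was not called with OVA alone, and whether the OVA effects of these genes differ from each other was not tested.

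Col5a2 (chr1:45374331-45503282, GRCm38.p6), the next gene after Col3a1 on the same chromosome, ran from 7.41 to 7.77 in the PBS controls. It read 8.70, 8.79 and 8.83 with core CuO, 9.15, 8.62 and 8.83 with CuO COOH, 9.20, 9.09 and 8.67 with CuO NH3, and 8.12, 8.16 and 7.83 with CuO PEG at 40 µg, all above the controls. The log2 fold changes were 1.23, 1.23 and 1.28 for the first 3 materials, and all were called. The fitted value for core CuO, from the fit with array terms, depended on 1 sample: with core CuO replicate 2 left out, it was -0.16 and was not called. Within slides, the core CuO sample was above the PBS control on all 3 slides, by 0.9 to 1.34. Col5a3, the third type V gene, ran from 6.51 to 6.73 in the PBS controls and read 7.41, 7.52 and 7.50 with core CuO, 7.48, 7.44 and 7.74 with CuO COOH, 7.44, 7.45 and 7.32 with CuO NH3, and 6.69, 6.95 and 7.03 with CuO PEG. With CuO PEG 1 of the 3 samples lay within the control range, and for the other materials none did. Its log2 fold changes of 0.91, 1.16 and 0.84 are means over a pair of probes that disagreed, 1.7 and 0.13 with core CuO, and the lower probe was above background in 3 samples only.

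**Figure D2:**
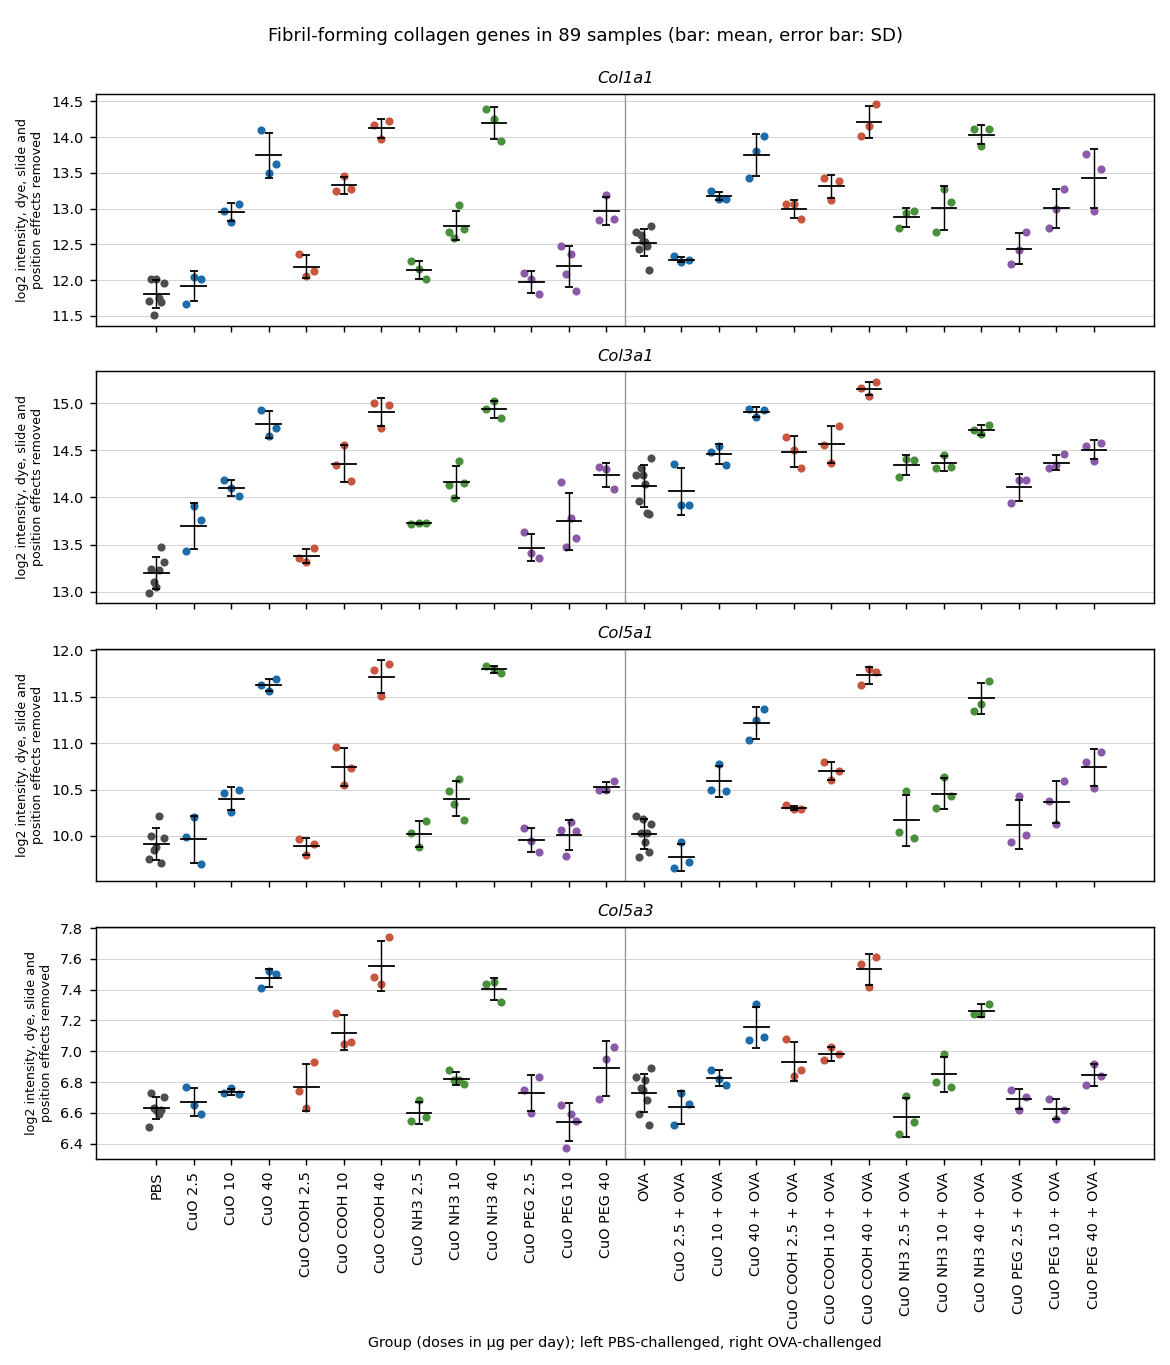
Log2 intensity of Col1a1, Col3a1, Col5a1 and Col5a3 (vertical axes, dye, slide and position effects removed) in each of the 89 samples by group, PBS-challenged on the left and OVA-challenged on the right. Points are samples, bars means and error bars SD; Col1a1 climbs from a median of 11.75 in PBS controls to between 13.50 and 14.39 at 40 µg per day of core CuO, CuO COOH and CuO NH3.

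The level of Col2a1, which encodes the main collagen of cartilage, followed the slides. On slides 1 to 3 the quantile-normalized log2 intensity ran from 7.95 to 11.34 and all 43 samples were above background. On slides 4 to 6 it ran from 5.55 to 7.06, and 19 of 46 samples were above background. The 3 PBS controls on slides 1 to 3 read 8.68, 9.12 and 7.95, and the 4 on slides 4 to 6 read 5.9, 6.08, 6.05 and 6.45. Over both control groups the mean of Col2a1 was lower on slides 4 to 6, with a difference of -3.24, and the next largest such difference among the 44 genes was 0.81, of Col4a3. What differed between the slide sets was not tested.

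Within slides 1 to 3, Col2a1 read 10.91, 10.48 and 10.14 at 40 µg of core CuO and 11.15, 10.75 and 10.21 with CuO COOH, all above the PBS controls there, with called log2 fold changes of 1.89 (SE 0.39) and 2.39 (SE 0.38). The OVA controls on the same slides read 10.21, 10.19, 9.96 and 9.39. On slides 4 to 6 Col2a1 read 6.66, 7.06 and 5.97 with CuO NH3 at 40 µg, where the called value of 0.89 (SE 0.28) had samples overlapping with the controls and changed sign in the fit with array as a random effect (-0.45). That fit has no slide term. Of 7 other genes of cartilage, none was above background in all samples and 0 were called at 40 µg of core CuO.

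**Figure D3:**
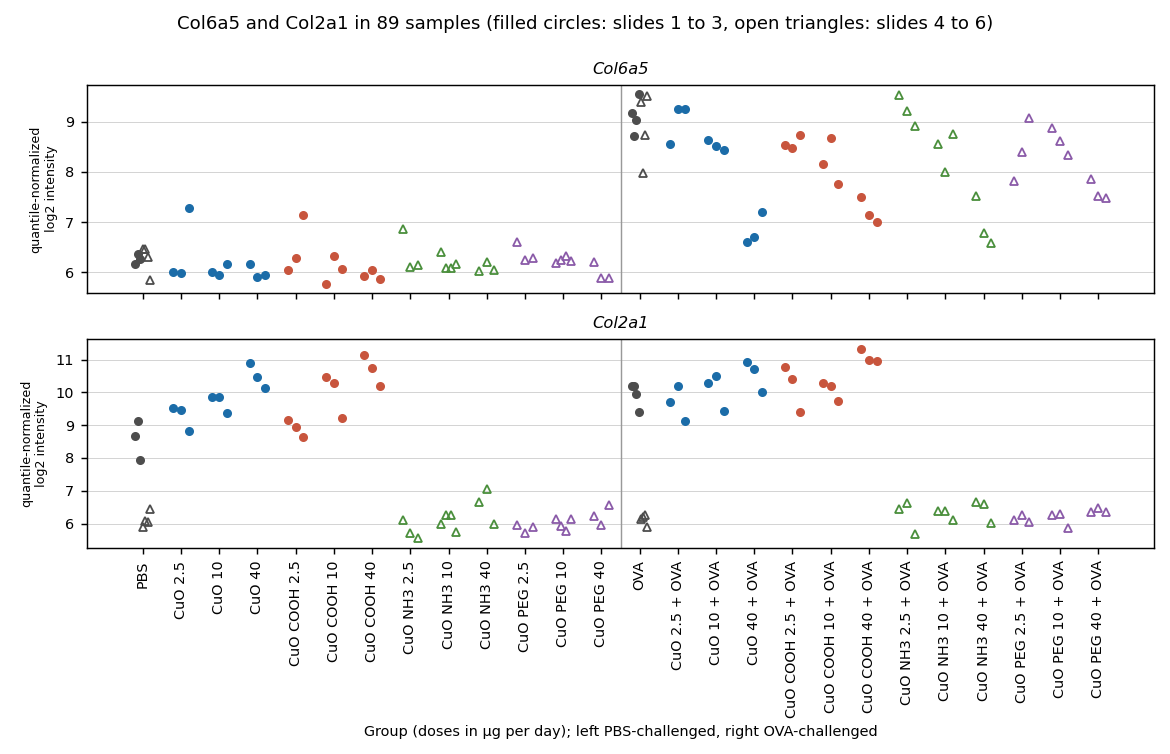
Quantile-normalized log2 intensity of Col6a5 and Col2a1 (vertical axes) in each of the 89 samples by group, with slide effects kept; filled circles are samples on slides 1 to 3 and open triangles samples on slides 4 to 6. The Col2a1 circles lie between 7.95 and 11.34 and its triangles between 5.55 and 7.06. The Col6a5 circles lie between 5.77 and 9.55 and its triangles between 5.84 and 9.53.

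Of the remaining fibrillar genes, Col11a1, a minor component of cartilage fibrils, was called with CuO NH3 at 40 µg. It was above background in all 3 exposed samples and in none of the PBS controls, so only a bound can be given, at least 1.44-fold higher (adjusted p = 9.78e-06 in limma), and its probes disagreed (1.64 and 0.23, the second never above background). Col27a1, found in cartilage and developing tissue, fell by 0.65 on the log2 scale with core CuO (SE 0.2). Col11a2 and Col24a1 were not called. As a class, the 11 fibrillar genes had 7 higher and 1 lower with core CuO (median log2 fold change 1.16), 7 higher with CuO COOH (1.23), 8 higher with CuO NH3 (0.93) and 2 higher with CuO PEG (0.47) at 40 µg without OVA.

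The 9 fibril associated genes, whose interrupted helices sit on the surface of fibrils, had 1 call in those 4 comparisons (all genes 14%, 10.3%, 13.2% and 2.18%), Col20a1 with CuO COOH (-0.63, SE 0.17). Their median log2 fold changes lay between -0.01 and 0.16. Col12a1, which encodes type XII collagen, was called with CuO NH3 at 40 µg in OVA-challenged mice (0.65, SE 0.19). Of the 9 genes, Col19a1, Col9a1, Col9a3, Col9a2 and Col22a1 were above background in fewer than 45 samples. At the signal of these probes a change in such genes may not have been detectable.

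In type IV collagen, the network of basement membranes, all calls were in the other direction, and the 6 genes did not move together. They lie as 3 head to head pairs in the genome. Col4a1 and Col4a2, which make the form found in all basement membranes, overlap by 85 bases at their starts on chromosome 8, Col4a4 and Col4a3 overlap by 114 bases on chromosome 1, and Col4a6 and Col4a5 lie 1274 bases apart on chromosome X. The α3, α4 and α5 chains assemble into the specialised network of the alveolar and glomerular basement membranes.

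Col4a3 ran from 9.64 to 9.91 in the PBS controls (median 9.72). At 40 µg it read 9.27, 9.07 and 9.45 with core CuO, 9.23, 9.41 and 9.09 with CuO COOH, 9.19, 9.03 and 9.08 with CuO NH3, and 9.19, 9.32 and 9.24 with CuO PEG. All 12 samples were below the lowest control. Col4a3 was called with core CuO (-0.89, SE 0.26), CuO COOH (-0.89, SE 0.25; at 10 µg -1.03, SE 0.28) and CuO NH3 (-0.68, SE 0.18), and in OVA-challenged mice with CuO NH3 at 10 µg (-0.81, SE 0.2). The OVA controls ran from 8.93 to 9.33, below all PBS controls, although that difference was not called.

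Col4a4 fell with OVA alone by 0.67 on the log2 scale (SE 0.14, adjusted p = 0.00227 in limma), from 9.41 to 9.68 in the PBS controls to between 8.72 and 9.01 in the OVA controls, and was called at 40 µg of core CuO (-1.03, SE 0.24) and CuO NH3 (-0.76, SE 0.17). Col4a5 was called with core CuO alone (-1.03, SE 0.23). Col4a1 and Col4a2 were never called: Col4a1 read 13.86, 13.66 and 13.60 with core CuO at 40 µg against 12.77 to 13.38 in the PBS controls, which puts the 3 samples above all controls, but its log2 fold change of 0.77 (SE 0.32) had an adjusted p of 0.104 in limma. In the fit with slide and position in place of array it was 0.58 (adjusted p = 0.00032), so this gene's call depends on how the arrays were modelled. The class median at 40 µg was -0.73 with core CuO, -0.44 with CuO COOH, -0.49 with CuO NH3 and -0.15 with CuO PEG, with 3, 1, 2 and 0 genes called lower and none higher.

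Over the 89 samples the paired genes followed each other in the adjusted log2 values, with Pearson's r of 0.898 for Col4a1 and Col4a2, 0.825 for Col4a3 and Col4a4 and 0.628 for Col4a5 and Col4a6. These samples share arrays and group effects, so the coefficients are descriptive. Col1a1 had r of 0.899 with Col1a2 and 0.927 with Col3a1.

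Col4a3 samples lay below all PBS controls with OVA alone and at 40 µg of each material without OVA. They also did so in other groups, such as CuO COOH at 10 µg, whose endothelial levels are not given here. In the first 5 groups Col4a1 and Col4a2 were not called, and the summed level of endothelial markers was below all PBS controls. All 6 were above background in every sample, and their summed log2 level ran from 15.59 to 16.17 in the PBS controls, from 15.1 to 15.58 in the OVA controls, from 14.76 to 14.89 at 40 µg of core CuO, from 14.73 to 14.95 with CuO COOH, from 14.8 to 15.06 with CuO NH3 and from 15.41 to 15.46 with CuO PEG. Of these 6 markers 4, 4, 6 and 0 fell at 40 µg in the order of materials, and 3 fell with OVA alone. The part of these cells in the type IV values was not tested. Levels of the alveolar epithelial markers in these groups are not given here, so their part was not examined either.

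The type VIII genes moved in opposite directions. Type VIII collagen is a short chain network former of vessel walls and of the endothelium of the cornea. Col8a1 ran from 9.66 to 9.98 in the PBS controls and read 10.53, 10.29 and 11 with CuO COOH and 10.78, 10.69 and 10.62 with CuO NH3 at 40 µg, all above the controls. It rose with both, by log2 fold changes of 1.01 (SE 0.24) and 1.07 (SE 0.18), and again with OVA (0.69, SE 0.18, and 1.17, SE 0.19). With core CuO it read 10.02, 10.36 and 10.47, all above the controls, and with CuO PEG 10.02, 9.94 and 9.67, and neither was called.

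Col8a2 ran from 7.3 to 7.72 in the PBS controls and read 7.21, 6.89 and 6.97 with core CuO, 7.27, 7.29 and 7.11 with CuO COOH, and 6.99, 6.82 and 6.97 with CuO NH3. These 9 samples were below all controls, as was 1 of the 3 with CuO PEG, at 7.20, while the other two, at 7.41 and 7.49, lay within their range. Col8a2 was called with core CuO (-0.86, SE 0.21, adjusted p = 0.00479 in limma) and CuO NH3 (-0.68, SE 0.15), and with CuO NH3 in OVA-challenged mice at 10 µg (-0.65, SE 0.16) and 40 µg (-0.79, SE 0.16), where 1 of the 3 samples was not above background. Over all samples Col8a1 and Col8a2 had an r of -0.589.

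The upstream windows of both genes are shown because the partners moved apart, again with matches in capitals.

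Col8a1, chr16:57754738-57754987, - strand: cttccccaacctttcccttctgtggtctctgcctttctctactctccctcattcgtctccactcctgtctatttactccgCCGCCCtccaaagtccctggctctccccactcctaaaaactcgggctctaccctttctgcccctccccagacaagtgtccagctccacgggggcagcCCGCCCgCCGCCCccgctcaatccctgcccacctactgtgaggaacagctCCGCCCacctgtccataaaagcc

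Col8a2, chr4:126286544-126286793, + strand: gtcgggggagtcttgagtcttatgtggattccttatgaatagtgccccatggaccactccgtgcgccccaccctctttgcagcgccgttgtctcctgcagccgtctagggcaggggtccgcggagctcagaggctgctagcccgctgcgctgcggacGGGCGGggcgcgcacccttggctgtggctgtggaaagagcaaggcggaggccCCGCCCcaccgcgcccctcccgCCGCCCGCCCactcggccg

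Each window held 4 matches to GGGCGG and none to CCAAT or TATAAA. In Col8a1 all 4 lay on the other strand, and in Col8a2 1 lay on the strand shown and 3 on the other, of which a pair overlaps. These letters therefore do not separate the gene that rose from the one that fell.

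**Figure D4:**
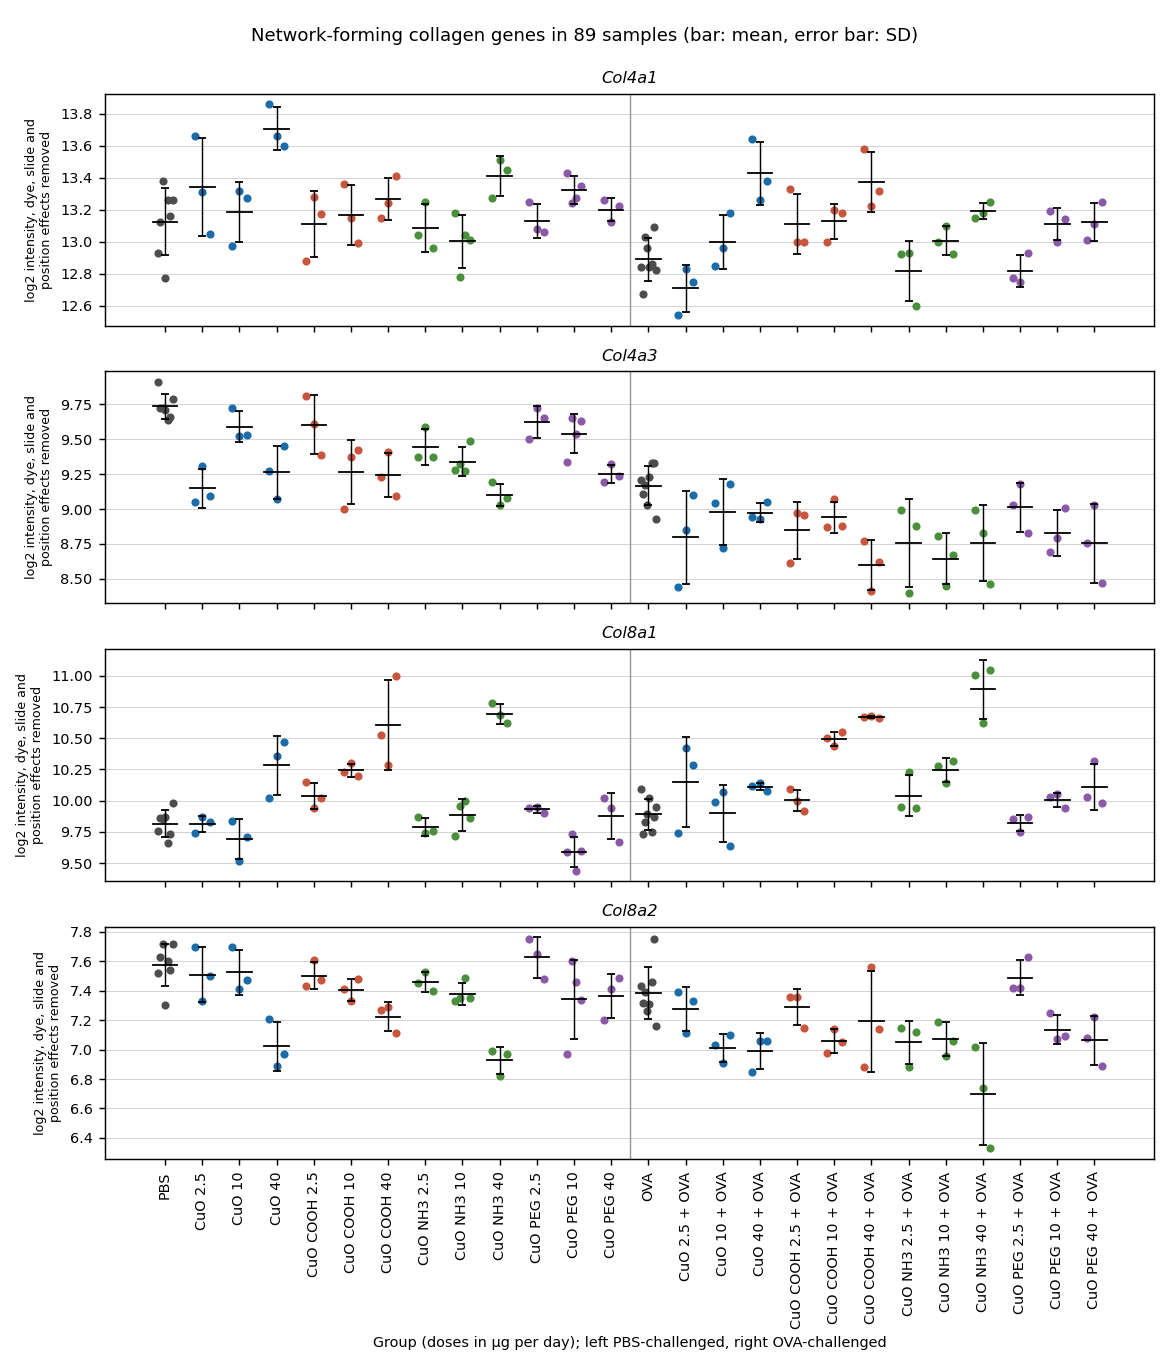
Log2 intensity of Col4a1, Col4a3, Col8a1 and Col8a2 (vertical axes, dye, slide and position effects removed) in each of the 89 samples by group; points are samples, bars means and error bars SD. Col4a3 drops from a PBS control median of 9.72 to between 9.03 and 9.45 at 40 µg per day of the 4 materials, while Col8a1 reaches 11 with CuO COOH and Col8a2 drops to 6.82.

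Type VI collagen forms beaded filaments around cells. Its gene Col6a5 (chr9:105856070-105962463, GRCm38.p6) had the largest response to allergen of the 44 genes and responded to the materials in the opposite direction. Col6a5 ran from 5.87 to 6.72 in the PBS controls, with a median of 6.51 and 6 of 7 samples above background, and from 8.49 to 9.71 in the OVA controls, with a median of 9.25. The groups did not overlap, and the log2 fold change was 2.15 (SE 0.27, 4.45-fold, adjusted p = 3.69e-06 in limma). Its probes gave 2.74 and 1.56, the second above background in 49 samples.

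In OVA-challenged mice exposed to 40 µg per day, Col6a5 read 7.00, 6.93 and 7.19 with core CuO, 7.60, 7.36 and 7.28 with CuO COOH, 7.71, 7.09 and 6.91 with CuO NH3, and 7.94, 7.94 and 7.72 with CuO PEG. All 12 samples were below the lowest OVA control and above the highest PBS control. The fall passed the test with CuO COOH (log2 fold change -1.63, SE 0.31, 3.1-fold lower, adjusted p = 0.00252) and CuO NH3 (-1.59, SE 0.34, adjusted p = 0.00592, both in limma). With core CuO the value was -1.61 (SE 0.44, adjusted p = 0.0623) and with CuO PEG -0.58 (adjusted p = 0.543), and neither was called. Within slides the difference from OVA controls was below 0 on every slide, between -2.35 and -2.32 for core CuO, -2.53 and -1.2 for CuO NH3 and -1.54 and -0.48 for CuO PEG.

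At lower doses with OVA, Col6a5 read 8.75, 9.57 and 9.36 at 2.5 µg and 8.84, 8.77 and 8.55 at 10 µg of core CuO, and 8.54, 8.52 and 8.78, then 8.51, 8.60 and 7.88 with CuO COOH. With CuO NH3 it read 9.34, 9.74 and 9.03, then 8.65, 8.43 and 9.07, and with CuO PEG 7.84, 8.50 and 9.20, then 8.79, 8.99 and 8.63. Most of these samples lay within the range of the OVA controls, and none of the 8 groups was called. Between 40 and 2.5 µg of CuO NH3 with OVA the log2 fold change was -1.97 (SE 0.4, adjusted p = 0.0203 in limma). In PBS-challenged exposed mice Col6a5 stayed between 5.84 and 7.24 and was not called.

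Of the other type VI genes, Col6a2 rose with OVA alone (0.66, SE 0.21) and with CuO NH3 at 40 µg (1.02, SE 0.25). Its call with OVA alone held in only 5 of 15 fits with 1 sample left out. Col6a3, the gene of the long α3 chain, rose at 40 µg without OVA with core CuO (0.63, SE 0.17), CuO COOH (0.73, SE 0.17) and CuO NH3 (0.74, SE 0.12). Col6a1 and Col6a4 were not called, and Col6a6 was above background in 1 sample. The class median stayed between 0.04 and 0.09 at 40 µg of the 4 materials without OVA, since members moved in both directions.

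Col7a1 encodes the anchoring fibrils that tie the epithelial basement membrane to the matrix below. It ran from 9.45 to 9.65 in the PBS controls and from 9.03 to 9.38 in the OVA controls, and OVA alone was not called. At 40 µg Col7a1 read 10.51, 10.18 and 10.59 with core CuO, 10.33, 10.58 and 10.54 with CuO COOH, and 10.29, 10.53 and 10.07 with CuO NH3. These were all above the controls and were called (0.93, SE 0.23; 0.93, SE 0.22; 0.69, SE 0.16). With OVA the same materials gave 1.09, 0.99 and 0.95, also called, from samples between 9.91 and 10.52. CuO PEG was not called either way, with samples of 9.74, 9.83 and 9.66 without OVA and 9.74, 9.44 and 9.54 with it, all of them above their controls.

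Among the multiplexins, which lie at the border between basement membrane and matrix, Col18a1, the precursor of endostatin, rose at 40 µg without OVA with core CuO (1.03, SE 0.17), CuO COOH (0.71, SE 0.17) and CuO NH3 (0.9, SE 0.12), and was not called with OVA. Col15a1 was not called. Of the 4 transmembrane collagens, Col13a1 fell with OVA alone by 0.59 on the log2 scale (SE 0.13), from between 8.92 and 9.44 in the PBS controls to between 8.48 and 8.86, and Col17a1, Col23a1 and Col25a1 were not called. Col26a1 and Col28a1 were not called either.

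With OVA alone 6 of the 44 genes were called, 4 higher and 2 lower, beside 5.22% of all genes. The 6 were Col6a5, Col3a1, Col1a1 and Col6a2, which rose, and Col4a4 and Col13a1, which fell. Of these calls, that of Col6a2 held in 5 and that of Col13a1 in 11 of 15 fits with 1 sample left out. The median over the 44 genes was 0.03. In OVA-challenged mice set against OVA controls, 40 µg gave 4 calls with core CuO (all genes 1.58%), 9 with CuO COOH of which 8 were higher (3.81%), 8 with CuO NH3 of which 6 were higher (3.98%) and 2 with CuO PEG (0.642%). The medians were 0.17, 0.17, 0.1 and 0.07. Without replicate 2 of core CuO 40 + OVA its count was 0, without replicate 1 or 3 it was 1, without replicate 1 of CuO COOH 40 + OVA or OVA replicate 1 the count with CuO COOH was 5, without replicate 1 of CuO NH3 40 + OVA that with CuO NH3 was 4, and without replicate 1 of CuO PEG 40 + OVA or OVA replicate 7 that with CuO PEG was 0.

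Whether the response to 40 µg differed between challenges was tested directly, as the effect in OVA-challenged minus that in PBS-challenged mice. Of the 44 genes, 1 was called for any material, beside 2.16% of all genes. The count was 5 with slide and position in place of array and 6 with array as a random effect. It was Col3a1 with CuO NH3, at -1.29 (SE 0.26, adjusted p = 0.00716 in limma): its samples reached 14.94, 15.02 and 14.84 without OVA and 14.71, 14.67 and 14.77 with it, from control medians of 13.23 and 14.19. The corresponding values of Col3a1 were -0.92 with core CuO, -1.16 with CuO COOH and -0.43 with CuO PEG, with adjusted p of 0.182, 0.0643 and 1. For Col1a1 they were -0.88, -0.74, -1.27 and 0.18 in the order core CuO, CuO COOH, CuO NH3 and CuO PEG, and none was called (adjusted p from 0.0714 to 1 in limma). These values share the control samples and are not independent. The single call was lost without CuO NH3 40 replicate 1, CuO NH3 40 + OVA replicate 3, PBS replicate 5 or OVA replicate 8.

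At the lower doses few collagen genes were called. At 2.5 µg there was none with any material under either challenge, beside 0.908%, 0.345%, 0.934% and 0% of all genes without OVA and 0%, 0.0349%, 0.986% and 0% with it, in the order core CuO, CuO COOH, CuO NH3 and CuO PEG. Replicates 1 and 3 of core CuO 2.5 + OVA and replicate 2 of CuO COOH 2.5 were each alone on an array, so they add nothing to a fit with array terms, and the former group rests there on 1 sample. At 10 µg without OVA, 1 gene was called with core CuO, 6 with CuO COOH (all genes 3.61%), 2 with CuO NH3 (3.37%) and 0 with CuO PEG (0.428%). The 6 with CuO COOH were Col2a1 (1.52), Col1a1 (1.37), Col3a1 (1.36), Col5a1 (0.87) and Col5a3 (0.84), which rose, and Col4a3 (-1.03). Each of these calls held in 2 to 8 of 10 fits with 1 sample left out, fewest for Col1a1 and most for Col5a3. At 10 µg with OVA, 3 were called with CuO COOH (0.637%), Col1a2, Col5a1 and Col8a1, and 4 with CuO NH3 (2.51%), Col1a1, Col5a1, Col4a3 and Col8a2. The call of Col1a1 held in 3 of 11 fits with 1 sample left out, and the others in 6 to 8. With CuO NH3, samples of Col1a1 and Col8a2 overlapped with the OVA controls. None was called with core CuO (0.266%) or CuO PEG (0%).

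Between 40 and 2.5 µg without OVA, 10 collagen genes were higher with core CuO (all genes called 4.18%), 4 with CuO COOH (0.873%), 12 with CuO NH3 (7.15%) and 2 with CuO PEG, where Col4a3 was lower (4.35%). The largest steps with core CuO were Col5a1 (2.00, SE 0.25), Col1a1 (1.83, SE 0.4), Col2a1 (1.7, SE 0.45) and Col5a2 (1.63, SE 0.33), and with CuO NH3 Col1a1 (2.09, SE 0.26) and Col5a1 (1.52, SE 0.16). In OVA-challenged mice 3 genes were called with CuO NH3, Col5a1, Col7a1 and Col6a5 (0.703%), and none with core CuO (0.096%), CuO COOH (0.00873%) or CuO PEG (0.0131%). The 3 calls with CuO NH3 and OVA were lost without replicate 1 of its 40 µg group. These counts depended on how the arrays were modelled. With slide and position in place of array, 15 collagen genes were called for doses with OVA over all materials. The same count was reached with array as a random effect. In the fit with array terms the 2.5 µg group of core CuO with OVA rests on 1 sample. The fitted log2 fold changes rose from dose to dose in 22 of the 44 genes with core CuO, 15 with CuO COOH, 15 with CuO NH3 and 8 with CuO PEG without OVA, and fell from dose to dose in 11, 6, 5 and 13. These counts include small steps and dim genes, and no share over all genes was computed. Some genes would show either order by chance, so the counts only describe.

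The materials were compared at matched doses in 18 comparisons between a functionalized material and core CuO, 3 materials at 3 doses under both challenges, with p-values adjusted over all genes within each. Doses were matched by mass of the whole material. The paper states that the copper given therefore differed, with less in the coated materials. Coating and copper amount changed together, and their parts were not tested. At 40 µg without OVA, CuO PEG left 7 collagen genes lower than core CuO, beside 4.39% of all genes called. With array terms in place of slide and position the count was 2. The largest were Col2a1 (-1.22), Col5a1 (-1.09, SE 0.18, 2.13-fold lower, adjusted p = 4.44e-05 in limma), Col1a1 (-0.78, SE 0.23), Col5a2 (-0.74), Col7a1 (-0.68) and Col6a2 (-0.59). With each of the 6 samples left out in turn, Col2a1, Col5a1, Col5a2 and Col7a1 kept their calls, Col1a1 lost its call without core CuO 40 replicate 1 or CuO PEG 40 replicate 1 or 3, and Col6a2 kept its call in only 1 of the 6. With OVA, 2 were lower, Col2a1 (-1.16) and Col7a1 (-0.7), beside 0.393% of all genes. Core CuO and CuO PEG lay on different slide sets, joined only through the controls, and Col2a1 is the gene that followed the slides most. The control mean of Col1a1 was also lower on slides 4 to 6 than on slides 1 to 3, with a difference of -0.71. The 2 calls with OVA were lost without replicate 1 or 3 of core CuO 40 + OVA or replicate 3 of CuO PEG 40 + OVA.

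CuO NH3 shared its slides with CuO PEG, and a comparison of these at 40 µg was added after the data had been examined. Without OVA 9 collagen genes were lower with CuO PEG (all genes called 4.79%), with Col5a1 at -1.27, Col1a1 at -1.24, Col5a2 at -0.95, Col8a1 at -0.82, Col12a1 at -0.76 and Col3a1 at -0.69. With OVA 4 were lower (1.94%), namely Col8a1 (-0.78), Col5a1 (-0.74), Col7a1 (-0.63) and Col5a2 (-0.6). Without OVA, 5 of the 7 genes lower than with core CuO and 6 of the 9 lower than with CuO NH3 were fibrillar.

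No collagen gene was called between CuO COOH and core CuO at 40 µg, without OVA (all genes 0.109%) or with it (0.323%). The difference in Col1a1 was 0.38 (SE 0.19, adjusted p = 0.396 in limma) and in Col3a1 0.13 (SE 0.15), with 95% intervals from 0.00 to 0.76 and from -0.17 to 0.43, and a p above the threshold does not show that the materials act alike. Between CuO NH3 and core CuO none was called without OVA (0.127%), where Col1a1 differed by 0.46 (SE 0.23, 95% interval from 0.00 to 0.92, adjusted p = 0.647 in limma). With OVA Col8a1 was higher with CuO NH3 (0.78, SE 0.17, adjusted p = 0.0288 in limma), beside 0.384% of all genes. At lower doses the only call was Col12a1, higher with CuO PEG than with core CuO at 2.5 µg without OVA (0.68, SE 0.18), beside 1.86% of all genes. The other comparisons at 2.5 and 10 µg had 0 collagen genes called, beside 0.188% and 0.0175% of all genes for CuO COOH, 0% and 0.161% for CuO NH3 and 1.06% for CuO PEG at 10 µg without OVA. With OVA these were 0% and 0.00436% for CuO COOH, 0% at both doses for CuO NH3 and 0.00436% and 0% for CuO PEG.

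**Figure D5:**
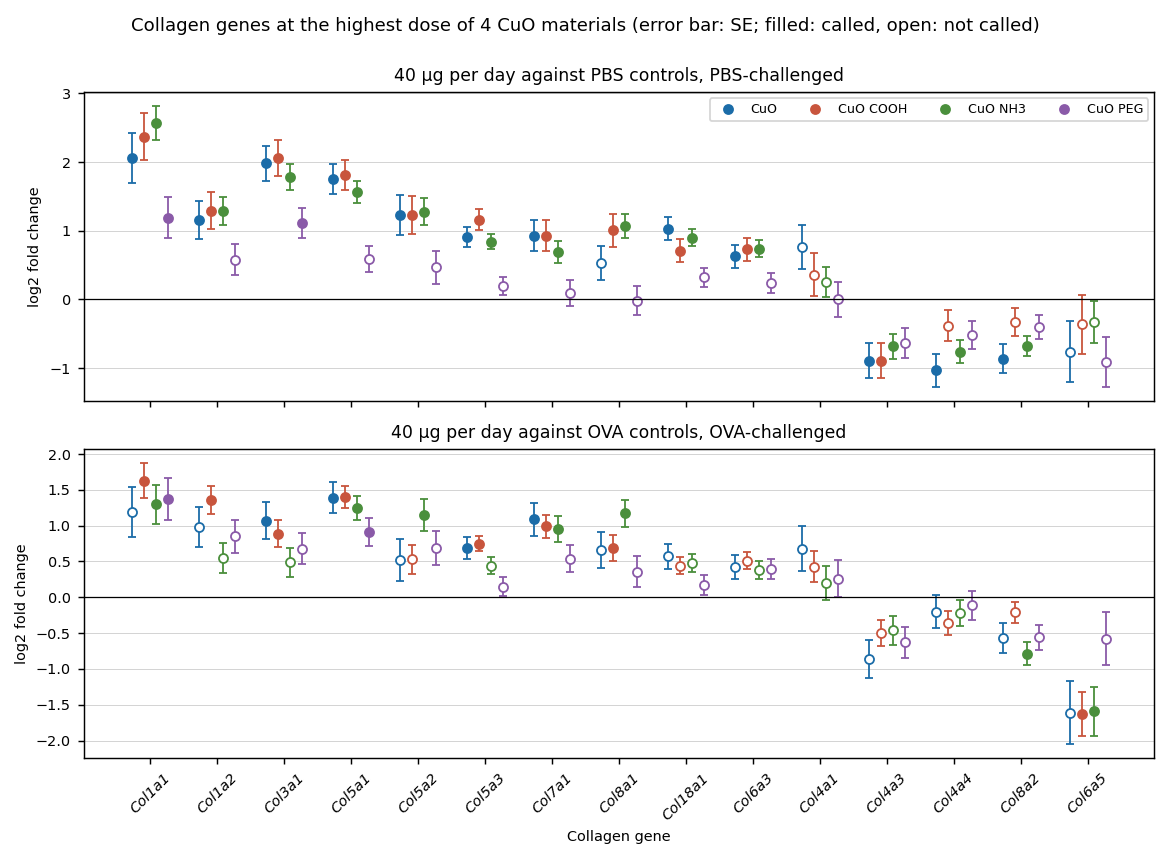
Log2 fold change against controls (vertical axis) of 15 collagen genes at 40 µg per day of core CuO, CuO COOH, CuO NH3 and CuO PEG, PBS-challenged above and OVA-challenged below; error bars are SE, filled points are called and open points are not. CuO PEG, with 1.19 for Col1a1 in PBS-challenged mice, lies below the other materials there for most fibrillar genes. In OVA-challenged mice it had 1.37 for Col1a1 beside 1.19 with core CuO, in the fit with array terms. Within slides the differences from OVA controls were 0.76 to 1.27 with CuO PEG and 0.97 to 1.58 with core CuO. Col1a1 was not called between these materials there. Col6a5 lies below 0 with all materials in OVA-challenged mice.

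Of all genes, 14% were called at 40 µg of core CuO without OVA (7.82% higher, 6.23% lower), 10.3% with CuO COOH, 13.2% with CuO NH3 and 2.18% with CuO PEG, and the counts of the following lists stand beside these shares with no test of the lists. Of 20 genes of synthesis and modification, 8 rose and 2 fell at 40 µg of core CuO without OVA, 4 and 1 with CuO COOH, 7 and 2 with CuO NH3, and 0 and 1 with CuO PEG. The largest rises with core CuO were Serpinh1, the collagen chaperone of the endoplasmic reticulum (1.41, SE 0.29), and Fkbp10, a prolyl isomerase that folds type I chains (1.33, SE 0.18). Colgalt2, a glycosyltransferase for hydroxylysine (-1.6, SE 0.24), and Plod2, a lysyl hydroxylase of the telopeptides (-0.95, SE 0.31), fell. The list median was 0.42 with core CuO, beside 0.18 for the collagens.

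Of 13 genes of processing and crosslinking, 3 rose and 1 fell with core CuO, 2 and 1 with CuO COOH, 4 and 1 with CuO NH3, and 0 and 1 with CuO PEG. Lox, the lysyl oxidase that starts crosslinking, rose by 2.2 (SE 0.22, 4.59-fold) with core CuO, 2.2 with CuO COOH and 2.03 with CuO NH3, and had 0.56 with CuO PEG, which was not called. Loxl2, a relative of Lox, rose by 1.21 and Adamts2, which removes the N-propeptide of type I chains, by 0.74. Pcolce2, an enhancer of C-propeptide removal, fell with all 4 materials (-2.66, -2.05, -1.84 and -1.1).

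Of 8 genes of collagen degradation and uptake, 4 rose with core CuO, 3 with CuO COOH, 5 with CuO NH3 and 0 with CuO PEG, and none fell. With core CuO these were Mmp8, the collagenase of neutrophils (3.44, SE 0.42), Mmp14, a membrane bound collagenase (1.84, SE 0.48), Mmp9, a gelatinase (1.61, SE 0.42) and Fap, a fibroblast protease (0.6, SE 0.18). Mmp8 is itself among the 5 neutrophil markers measured, which were above background in every sample. Their summed log2 level ran from 14.53 to 15.36 in the PBS controls, from 15.43 to 16.07 with core CuO, from 14.74 to 15.13 with CuO COOH and from 15.62 to 16.17 with CuO NH3, and 4, 1 and 3 of them rose, Mmp8 included. The level was thus above the controls with core CuO and CuO NH3 and within their range with CuO COOH, where Mmp8 rose by 2.19. Their part in the value of Mmp8 was not tested.

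Among 11 matrix proteins that bind collagen, 4 rose and 2 fell with core CuO, 3 and 2 with CuO COOH, 3 and 1 with CuO NH3, and 2 and 0 with CuO PEG. Tnc, the gene of tenascin C (2.48, 3.06, 2.5 and 0.98), and Fn1, fibronectin (2.21, 1.85, 2.08 and 0.83), rose with every material, while Prelp, a leucine rich proteoglycan, fell with core CuO (-1.45, SE 0.2). Of 9 collagen receptors only Itga1, the integrin α1 subunit, was called with core CuO (-0.9, SE 0.18). Among genes of TGF-β signalling, Tgfbr3 (-1.41), a coreceptor, and Smad7 (-0.65), an inhibitor of the pathway, fell with core CuO.

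At 40 µg of core CuO, CuO COOH and CuO NH3 without OVA, no sample had a summed level of fibroblast markers above the PBS controls. The summed log2 level of the 8 markers ran from 14.79 to 15.07 in the PBS controls and from 14.6 to 14.77 at 40 µg of core CuO, from 14.71 to 14.8 with CuO COOH and from 14.64 to 14.79 with CuO NH3, where Col1a1 was higher. With core CuO 1 of the 8, Fn1, rose and 3 fell, Gsn (-1.45), Tcf21 (-1.1) and Pdgfra (-0.99). The sum gives most weight to the markers with the brightest probes. The part of fibroblasts in the collagen values was not tested.

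Over the 89 samples, among 12703 genes above background in all of them, the 5 genes whose adjusted log2 values were most like Col1a1 were Pdgfrl (Pearson's r 0.937), Psrc1 (0.936), Inava (0.928), Nnmt (0.927) and Col3a1 (0.927). Those most like Col4a1 were Col4a2 (0.898), Bcl2l1 (0.8), Loxl1 (0.799), Bgn (0.795) and Itga3 (0.785). The samples share group effects, so these values only describe likeness of pattern.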

How the data were processed

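Per the labels, the authors scanned 2-colour Agilent arrays, and each deposited scanner file gives the red and green median foreground intensity of 62976 spots, of which 3671 are controls. From these, the log2 median foreground intensity of each sample's own dye was taken without background subtraction, outlier spots were left out, and 89 samples were quantile normalized. The value table the authors deposited holds the same quantile-normalized log2 values (correlation 1 in each of 89 columns). Of 56605 probes, 32994 had a gene in RefSeq for GRCm38.p6, and probes of a gene were averaged. Feature Extraction was version 12.0.2.2 per the file headers.

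limma 3.58.1 in R 4.3.3 fitted 26 groups with dye and array as terms (17 residual degrees of freedom) for comparisons with controls, doses and challenges, and with dye, slide and array position (50) between materials, because core CuO and CuO PEG share no slide. A call needed an adjusted p under 0.05 (Benjamini-Hochberg over 22911 genes, 60 of them with missing values) and a log2 change beyond 0.58. The highest correlation between 2 samples was 0.998. That value alone cannot show whether a pool was hybridised more than once. Each sample was treated as a separate pool.

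The members, gene lists and markers were chosen with earlier results of these data known. Values of single samples, at 40 µg and for some genes at lower doses, are given for the 12 collagen genes called most often, Col1a1, Col1a2 and Col3a1 among them, with Col4a1 added after its values were seen, at most 6 genes per direction are named in a comparison and at most 4 called genes from each other list. A gene of the TGF-β list is not reported here. Alternatives were other background corrections and normalizations, dim probes left out, the brightest probe per gene, other array terms, a replicate block and each sample left out in turn. Figures were drawn with matplotlib 3.10.9. The number of arrays limits the precision.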

Additional observations from a re-analysis of the deposited data

Results flagged for a closer look

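Among groups of 4 to 10 samples, 48 sets of values of the 12 collagen genes called most often were examined for a sample far from the others, and 2 stood out, where chance flags about 1 in 20 groups. Col1a2 was 14.19 in PBS replicate 4, and the nearest of the other 6 PBS controls was at 14.46. Col8a2 was 7.49 in CuO NH3 10 replicate 3, and the nearest of the other 3 samples was at 7.35. The effect of 40 µg per day of CuO NH3 on Col3a1 differed between challenges by -1.29 on the log2 scale (adjusted p = 0.00716 in limma), being smaller in OVA-challenged mice.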

How the results depend on the processing

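The counts of collagen genes called moved with how arrays were modelled and with single samples. With dye, slide and position in place of array, 4 genes were called with CuO PEG 40 without OVA and 4 with OVA, 8 with core CuO 40 + OVA, 15 for doses with OVA and 5 for the difference between challenges. With array as a random effect these were 4, 4, 8, 15 and 6. Replicate numbers did not pair samples (mean correlation of residuals 0.0707, 0.0655, 0.0567 and -0.0274 within numbers 1 to 4). With the replicate block the counts were 6 with CuO PEG 40, 7 with OVA, 8 with core CuO 40 + OVA, 18 with CuO NH3 40 + OVA, 10 for the lower doses with OVA, 15 for doses with OVA and 6 for the difference between challenges. With array terms CuO PEG against core CuO gave 2 calls without OVA and 0 with OVA, and CuO NH3 in place of core CuO, added after seeing the data, gave 9 and 4. The causes were not tested.

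The sign turned for Col2a1 with CuO NH3 40 (-0.45 with the random effect, -2.01 with the replicate block), for Col1a1 (-0.18) and Col4a3 (0.31) with CuO NH3 10 + OVA under the replicate block, and for Col5a2 with core CuO 40, which ranged from -0.16 without its replicate 2 to 1.44 without PBS replicate 1. The random effect and replicate block fits have no slide term, and the control mean of Col2a1 differed by -3.24 between slides 4 to 6 and 1 to 3.

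Leaving out each sample in turn gave 3 to 16 calls with core CuO 40, 2 to 13 with CuO COOH 40, 13 to 18 with CuO NH3 40 and 0 to 2 with CuO PEG 40. With OVA the ranges were 0 to 5, 5 to 10, 4 to 8 and 0 to 5. They were 4 to 7 for OVA alone, 3 to 8 for the lower doses with and without OVA, 12 to 16 for doses without OVA, 0 to 4 with OVA, 0 to 2 for the difference between challenges, and 5 to 6 without OVA and 0 to 2 with OVA for CuO PEG against core CuO. The calls of Col1a1, Col3a1, Col4a4 and Col6a5 with OVA alone held whichever sample was left out.

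Of 135 called values of single genes, 130 held with normexp background correction, 128 with loess normalization, 129 with the brightest probe, and all 135 with dim probes left out and with the deposited value table. With the terms exchanged, so that array terms were used between materials and slide and position elsewhere, 110 held. With array as a random effect 109 held and with the replicate block 111. Over single samples left out, 995 of 1251 values held. The signal limits 21 genes that were not above background in all samples.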
